A study of Mus musculus with 32 samples.

Results

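The replication-dependent histone genes supply the bulk of the histone protein that a dividing cell packs its new DNA with. They were taken by name, as the genes whose names start with Hist1h, Hist2h, Hist3h or Hist4h and do not hold "-ps", in both deposited expression tables, which gave 70 of 46078 genes. They comprise 6 genes for the linker histone H1, 20 for H2A, 19 for H2B, 12 for H3 and 13 for H4. The study measured RNA of mouse embryos collected 28 hours after fertilization, late in the 2-cell stage, or 12 hours after it, late in the 1-cell stage, with or without mutations of Dppa2 or Dppa4, which encode a pair of chromatin-associated proteins found in early embryos. The letters m and z give the maternal and the zygotic genotype, - the mutant and + the normal state. Total RNA was sequenced from Dppa2 m-z+ and m+z+ embryos of a mixed B6/DBA background and from Dppa4 m-z+ and m+z+ embryos of the B6 strain, at both stages, with 2 libraries per group. PolyA RNA was sequenced from single embryos: Dppa2 m-z- and m-z+ 2-cell embryos (mixed B6/DBA background), Dppa4 m-z- and m-z+ 2-cell embryos (B6), with 3 libraries per group, and WT 2-cell and WT 1-cell embryos (B6), with 2 libraries each. The labels do not say how many embryos went into a total RNA library, how the alleles were made, or whether the total RNA libraries of a group came from separate matings, so the p-values below measure the spread between these libraries.

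Most mRNAs end in a poly(A) tail, but the transcripts of replication-dependent histone genes are cut just after a short stem-loop in their 3′ untranslated region and carry no tail. The stem-loop binding protein SLBP holds this hairpin and is needed for cutting, export, translation and timely decay of the message, and in most dividing cells these mRNAs are made in S phase only. Oocytes and early embryos store and use histone messages under different rules, because the first divisions run on maternal RNA. A library primed on poly(A) therefore reads these genes mainly through transcripts that do have a tail, whereas a total RNA library reads both kinds.

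The hairpin itself was looked up in the GENCODE M21 transcripts (GRCm38, which is mm10) as 6 bases starting with GG, a loop of 4 bases starting with TT and the 6 complementary bases. Of the 70 genes, 68 had their identifier in that annotation, and 42 of these 68 (61.8%) held such a hairpin in an annotated transcript, against 143 of 55382 other genes (0.258%). A gene without a match has none in its annotated model, and many of those models end with the coding sequence. Windows of 9 genes are shown because they carry every version of the hairpin that was found. Capitals mark the 16 bases of stem, loop and stem.
Hist2h2aa1: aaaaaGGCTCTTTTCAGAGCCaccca, chr3:96246027-96246052, plus strand
Hist1h2ap: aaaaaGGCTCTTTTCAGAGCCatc, chr13:21833026-21833049, minus strand
Hist1h2ao: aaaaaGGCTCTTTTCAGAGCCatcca, chr13:21810893-21810918, plus strand
Hist2h2ac: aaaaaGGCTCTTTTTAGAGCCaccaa, chr3:96220413-96220438, minus strand
Hist1h2bk: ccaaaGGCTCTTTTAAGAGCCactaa, chr13:22036295-22036320, plus strand
Hist1h3f: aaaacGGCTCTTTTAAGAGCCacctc, chr13:23544927-23544952, plus strand
Hist1h4c: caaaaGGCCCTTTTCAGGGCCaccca, chr13:23698084-23698109, minus strand
Hist1h4i: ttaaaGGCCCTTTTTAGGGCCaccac, chr13:22040961-22040986, minus strand
Hist1h4b: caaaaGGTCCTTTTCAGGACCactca, chr13:23757361-23757386, plus strand
The version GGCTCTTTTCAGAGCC was found in 24 genes, of all classes but H4. All 11 H4 genes with a hairpin had another stem, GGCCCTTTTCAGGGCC in 7, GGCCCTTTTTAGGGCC in 2 and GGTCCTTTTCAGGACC in 2. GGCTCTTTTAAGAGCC stood in 6 genes of H1, H2B and H3, and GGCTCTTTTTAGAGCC in Hist2h2ac alone. The motif AATAAA or ATTAAA, the usual signal for adding a poly(A) tail, was present in the last 50 bases of an annotated transcript in 17 of the 68 genes (25.0%), against 43.9% of other genes.

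Most of the genes lie close together. Hist1 holds 56 of them, and the 54 with a position lie on chromosome 13, between 21715763 and 51203065. Hist1h2al marks the far end of that span, well away from the other Hist1 genes whose positions are printed here. Hist2 holds 11 on chromosome 3, Hist3 holds 2 on chromosome 11 and Hist4 holds Hist4h4 on chromosome 6. Within a class the sequences are so alike that 34 of 68 genes shared more than 50% of their 50-base stretches with other genes. Hist1h1a, Hist1h1b, Hist1h1t and Hist2h2be shared none, and Hist2h2aa2 shared 100%. How the authors assigned reads that match several copies is not given in the sources used here, so the split of a level between near-identical copies is uncertain, except for genes that share no stretch. Hist1h2al (chr13:51202727-51203065) and Hist1h2aj are annotated as pseudogenes. The symbol Hist2h2bb stands on 2 rows, of which ENSMUSG00000105827 is annotated as protein coding and ENSMUSG00000050936 as a noncoding gene that overlaps it. A further uncertainty is strand. Of the 68 genes, 24 overlap an annotated gene on the other strand and 8 one on their own strand, and the polyA libraries are labelled non-stranded.

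Levels are given in FPKM, fragment numbers divided by transcript length and by the size of the library. They may be compared between genes because of the division by length. They are relative to the size of a library and are not amounts per embryo. Their sum over all genes differs between libraries, and in total RNA it was higher in every 2-cell than in every 1-cell library. In total RNA a single linker histone gene led the list. Hist1h1a, which encodes histone H1.1 (chr13:23763666-23764406), averaged 1040 FPKM over the 16 libraries and made up 25.55% of the mean summed level of all 70 genes. The next were the near-identical H2A genes Hist2h2aa2 at 464.2 FPKM and Hist2h2aa1 at 420.6 FPKM, then the coding Hist2h2bb row at 245.1 FPKM and Hist1h2al at 186.1 FPKM. Hist1h2aa, which encodes TH2A, an H2A variant of testis and oocyte, followed at 145.6 FPKM. The leading H4 gene was Hist1h4c at 129.1 FPKM and the leading H3 gene Hist1h3f at 122.0 FPKM. Hist1h2ba, which encodes TH2B, the H2B partner of TH2A in testis and oocyte, averaged 74.19 FPKM. Hist1h1t, the linker histone of spermatocytes, lay between 0.194 and 4.96 FPKM. In polyA RNA the means over the 16 libraries were 37.6 FPKM for Hist1h1a, 32.79 FPKM for Hist1h4d, 30.56 FPKM for Hist1h2ap, 19.92 FPKM for Hist1h4c and 18.61 FPKM for Hist1h2ao, but the order differed between groups. Hist1h2ap had the highest mean under the labels Dppa2 m-z- (50.61 FPKM) and Dppa2 m-z+ (31.14 FPKM), and Hist1h4d in Dppa4 m-z- (55.84 FPKM) and Dppa4 m-z+ embryos (41.64 FPKM). In Dppa2 m-z+ embryos Hist1h2ap had 68.52, 22.04 and 2.846 FPKM and led in replicate 1 alone. The libraries also differed for Hist1h4d, with 20.99, 59.91 and 86.63 FPKM in Dppa4 m-z- embryos. In Dppa4 m-z+ embryos it had 15.54, 31.02 and 78.36 FPKM. Hist1h1a had the highest mean in WT 2-cell embryos (41.22 FPKM), close to Hist1h2ap at 40.22 FPKM. It also had the highest mean in WT 1-cell embryos (81.6 FPKM), followed there by Hist1h2aa at 48.15 and Hist1h2ba at 45.73 FPKM.

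**Figure D1:**
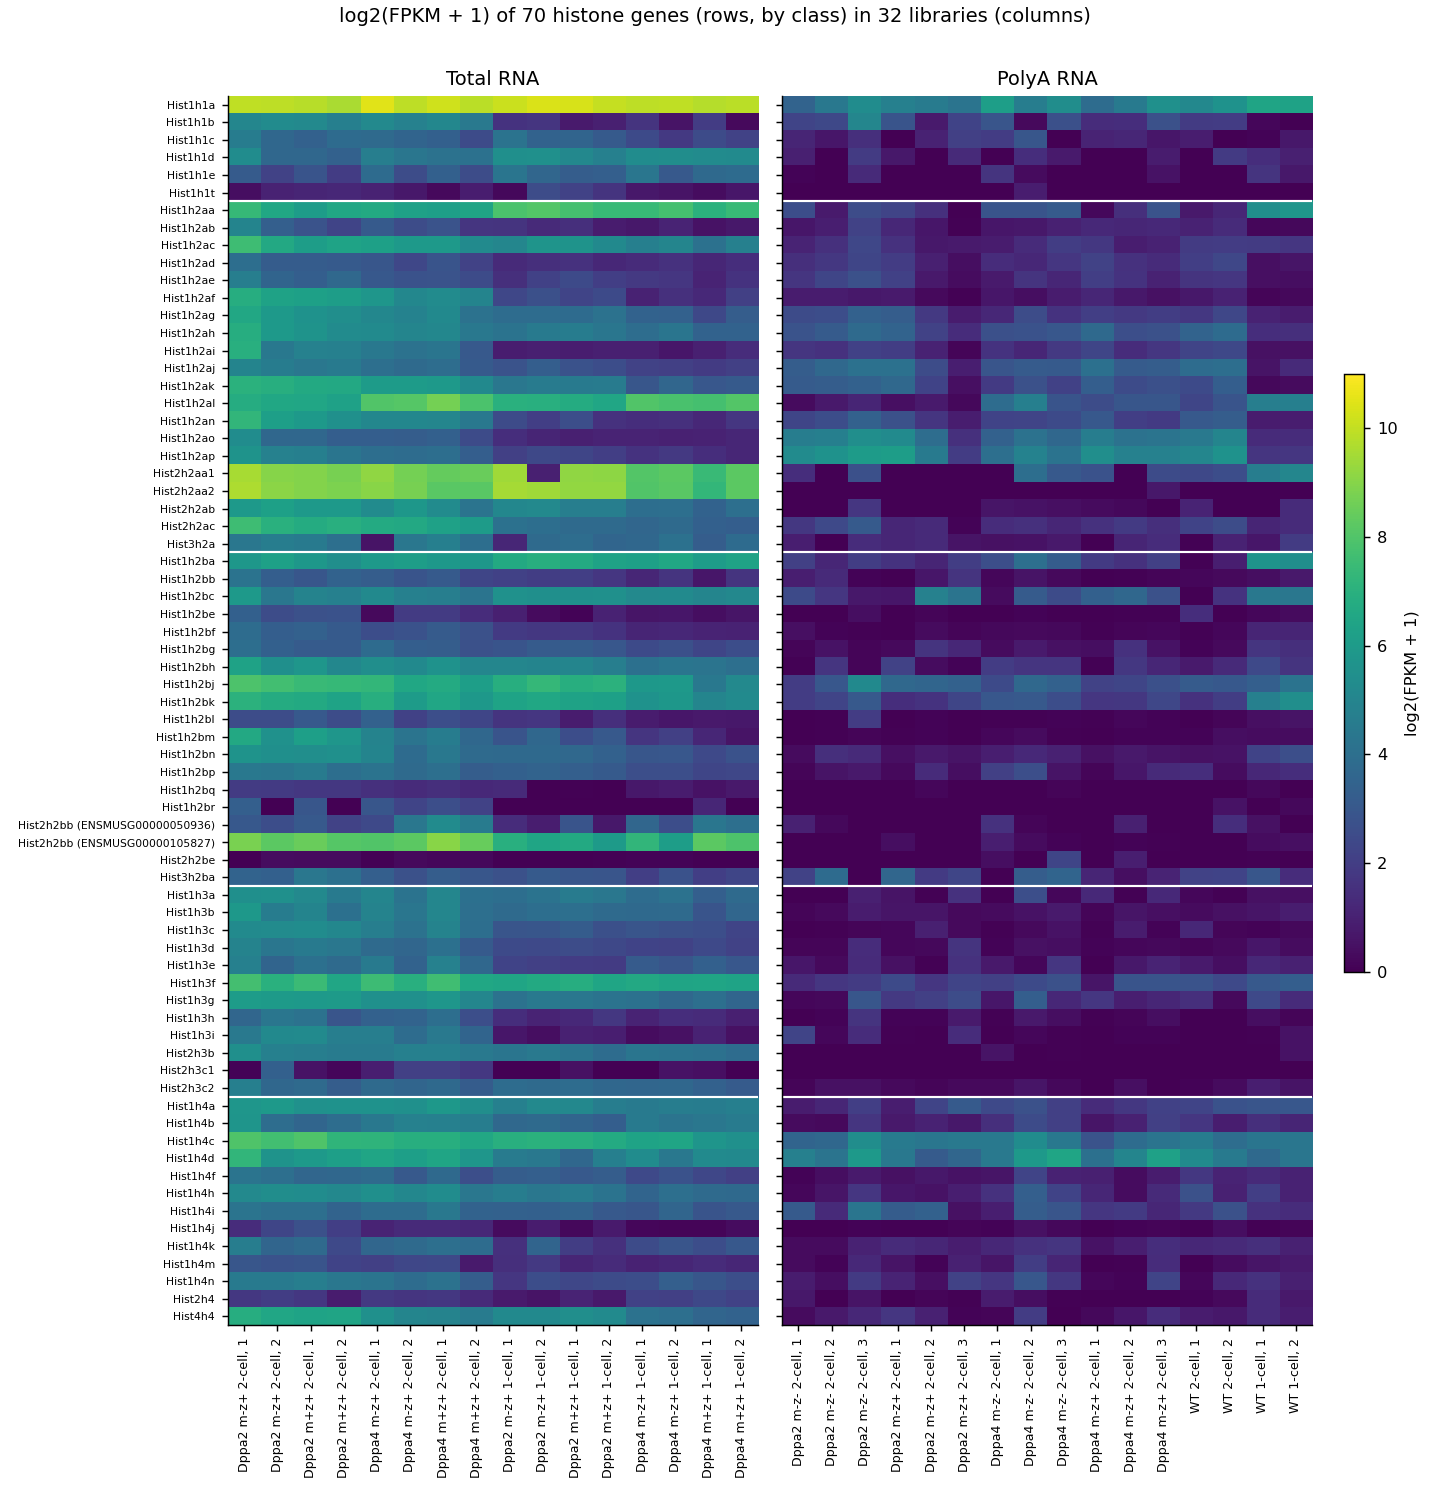
Level of each of the 70 histone genes (rows, grouped by class from H1 at the top to H4 at the bottom) in each of the 32 libraries (columns), as log2(FPKM + 1), with total RNA on the left and polyA RNA on the right. Most rows are brighter in total RNA, Hist1h1a is the brightest row there, and the dark cell of Hist2h2aa1 is the library in which it is listed at 0.947 FPKM.

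The near-identical pair Hist2h2aa1 and Hist2h2aa2 shows how levels divide between copies. In 15 of 16 total RNA libraries both were high, between 173.1 and 754.8 FPKM for Hist2h2aa1. In Dppa2 m-z+ 1-cell replicate 2 Hist2h2aa1 was listed at 0.947 FPKM while Hist2h2aa2 stood at 682.7 FPKM. In polyA RNA Hist2h2aa2 was listed at 0 in 15 of 16 libraries, whereas Hist2h2aa1 had 24.41 and 31.94 FPKM in WT 1-cell embryos. The split of reads between them is uncertain in every library.

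Total RNA against polyA RNA. The tables were normalized separately, so no test was made between them and the following differences are descriptive. The library kits also differed between total RNA and polyA RNA, so an effect of the kit cannot be told apart from one of the tail. In matched groups, total RNA gave higher values than polyA RNA for nearly all histone genes, and the gap was wider at the 2-cell stage. In B6 control 2-cell embryos (Dppa4 m+z+ for total RNA, WT for polyA RNA) the median difference was 3.07 on the log2(FPKM + 1) scale over the 68 histone genes with at least 1 FPKM in either, while the median over 15622 genes chosen by the same minimum was -0.5. In B6 control 1-cell embryos it was 1.73 over 59 histone genes, and -0.01 over 12529 genes. The mutants with both kinds of library gave similar values at the 2-cell stage, 3.79 for Dppa2 m-z+ and 3.23 for Dppa4 m-z+, with -0.54 and -0.34 over all genes. The total RNA libraries were all above the polyA libraries for 63 of the 68 histone genes in each of these 3 groups of 2-cell embryos, and for 52 of 59 in 1-cell controls. The share of all genes that did so was 31.3% in 2-cell controls, 23.4% in Dppa2 m-z+, 30.4% in Dppa4 m-z+ and 42.6% in 1-cell controls. Total RNA lay below polyA RNA without overlap for 2, 0 and 2 histone genes in those 2-cell groups (44.2%, 36.4% and 36.8% of all genes) and for 3 in 1-cell controls (41.6%).

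Histone genes whose mRNAs are known to carry a poly(A) tail were mixed, with medians below 0. Over 11 genes of replacement histones and other tailed histone mRNAs, the median difference was -1.74 in B6 control 2-cell embryos and -1.05 in 1-cell embryos. Total RNA was the higher for 4 and 2 of the 11, beside 40.9% and 49.9% of all genes, and the 2-cell count is near that share. H3f3b, which encodes the replacement histone H3.3, averaged 179.5 FPKM in total RNA and 1579 FPKM in polyA RNA at the 2-cell stage. H2afx, known to make both a hairpin-ended and a tailed mRNA, had 59.32 FPKM in total RNA and 7.197 FPKM in polyA RNA there. H1f0, for the linker histone H1.0, had 39.9 FPKM in total RNA and 10.13 FPKM in polyA RNA, and H2afy and H1foo differed by 1.36 and 0.34 in the same direction. The H2afy values were low, 1.882 FPKM in total RNA and 0.1279 FPKM in polyA RNA.

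**Figure D2:**
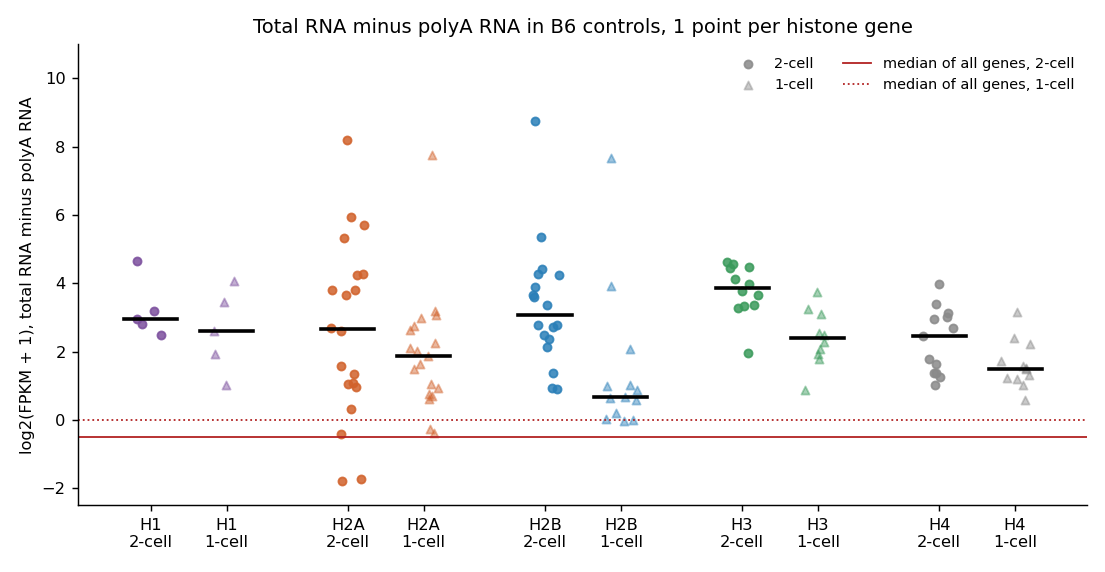
Difference of mean log2(FPKM + 1), total RNA minus polyA RNA, for each histone gene with a mean of at least 1 FPKM in either, in B6 control 2-cell embryos (circles) and 1-cell embryos (triangles), by class. Black bars are class medians and red lines the median of all genes. Every class median lies above both red lines, and the H2A class holds the lowest points.

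The gap differed between classes and genes. At the 2-cell stage the class medians of the B6 controls were 2.96 for H1, 2.65 for H2A, 3.07 for H2B, 3.87 for H3 and 2.46 for H4. At the 1-cell stage H2B was lowest, at 0.67, with 2.61 for H1, 1.87 for H2A, 2.39 for H3 and 1.5 for H4. Among single genes, the coding Hist2h2bb row was 8.74 above polyA RNA at the 2-cell stage and 7.66 above at the 1-cell stage. Hist2h2aa2 was 8.19 and 7.75 above, and its copy Hist2h2aa1 5.95 and 2.97 above. At the 1-cell stage the next widest gaps were those of Hist1h1d, the noncoding Hist2h2bb row and Hist2h3b. Hist1h1a, whose sequence is not shared, had 1176 and 937.8 FPKM in total RNA of 2-cell controls and 34.05 and 48.39 FPKM in their polyA RNA, a ratio of means of 25.64. At the 1-cell stage it had 877.7 and 932.4 FPKM in total RNA and 83.83 and 79.36 FPKM in polyA RNA, a ratio of 11.09. The total RNA values of Hist1h1a thus lay well above its polyA values at both stages. Hist1h2ba and Hist1h2bk stood close in both kinds of library at the 1-cell stage, with differences of 0.65 and 0.03, and far apart at the 2-cell stage, at 5.35 and 4.42. The reverse was seen for Hist1h2ao and Hist1h2ap, which were lower in total RNA, by -1.79 and -1.72 at the 2-cell stage and by -0.26 and -0.38 at the 1-cell stage. Hist1h2aj stood at -0.41 at the 2-cell stage and 1.05 at the 1-cell stage. Hist3h2ba (0.91 and 0.01), Hist1h2ad (0.32 and 0.77) and Hist1h2bf (2.79 and -0.04) also lay near or below the class medians.

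Neither feature of the transcript models set the genes apart cleanly. At the 2-cell stage the median difference of the B6 controls was 2.79 over 41 genes with a hairpin in the model and 3.59 over 25 without. It was 1.95 over 15 genes with AATAAA or ATTAAA near the end and 3.36 over 51 without, and 2.88 against 3.07 for genes sharing more, or not more, than 50% of their stretches. The same 3 splits gave 1.78 and 1.63, 1.61 and 1.7, and 1.54 and 1.76 at the 1-cell stage.

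Stage, total RNA. From here each gene was tested with limma on log2(FPKM + 1), with one mean per group and a spread shared by the 16 libraries of a table, and called at a Benjamini-Hochberg adjusted p under 0.05 over all genes tested. A gene was tested if at least 2 libraries of the table reached 1 FPKM, which 69 of the 70 histone genes did in total RNA (all but Hist2h2be) and 53 in polyA RNA. In total RNA most histone genes were higher at the 2-cell stage than at the 1-cell stage, in mutants and controls alike. In Dppa2 m-z+ embryos 47 rose and 4 fell, where 28.8% and 28.4% of all genes tested did, 57.3% together. In Dppa2 m+z+ embryos 40 rose and 4 fell (31.7% and 29.9% of all genes, 61.6% together). In Dppa4 m-z+ embryos 44 rose and 1 fell (25.3% and 25.0%, 50.3% together), and in Dppa4 m+z+ embryos 41 rose and 2 fell (24.9% and 24.2%, 49.1% together). The median change of the histone genes was 1.57, 1.21, 1.08 and 1.11 in these 4 comparisons in the same order, with 0.02, 0.06, 0.03 and 0.04 over all genes tested. A rescaling that makes each library's FPKM sum alike (TPM) lowered the median of all genes by 0.21, 0.36, 0.28 and 0.28, and then 35, 30, 32 and 33 histone genes rose while 5, 8, 3 and 4 fell. The shares of all genes called with TPM are not given, and the shares above do not apply to these counts. The Dppa4 m+z+ count of called genes, 43, was 23 without 2-cell replicate 1. In RNA of whole 2-cell embryos, a change in 1 of the cells and a change in both cannot be told apart.

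The summed level moved less than the number of genes. The 70 genes together had 3455 to 6879 FPKM (median 4796.5) in the 8 2-cell total RNA libraries, which was 0.652% to 1.346% of all FPKM, and 2543 to 4153 FPKM (median 3263.5), or 0.609% to 0.906%, in the 8 1-cell libraries. The ranges overlapped, and the highest value came from Dppa2 m-z+ 2-cell replicate 1. Core histone classes were higher at the 2-cell stage, without overlap for H2B (666.1 to 1268 FPKM against 368.4 to 591.5 FPKM), H3 (238.4 to 574.4 against 155.4 to 223.5 FPKM) and H4 (298.2 to 746.3 against 180.6 to 290.1 FPKM). H2A overlapped, at 1267 to 3209 FPKM in 2-cell and 752.9 to 1935 FPKM in 1-cell embryos. H1, which is mostly Hist1h1a, spanned 818.8 to 1542 FPKM in 2-cell and 937.2 to 1383 FPKM in 1-cell embryos. The FPKM of all genes also summed higher at the 2-cell stage, to 509724 to 629583 in 2-cell and 412115 to 471322 in 1-cell total RNA libraries. The class sums were not divided by these totals, so as shares of a library the classes may overlap. No p is given for these sums.

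**Figure D3:**
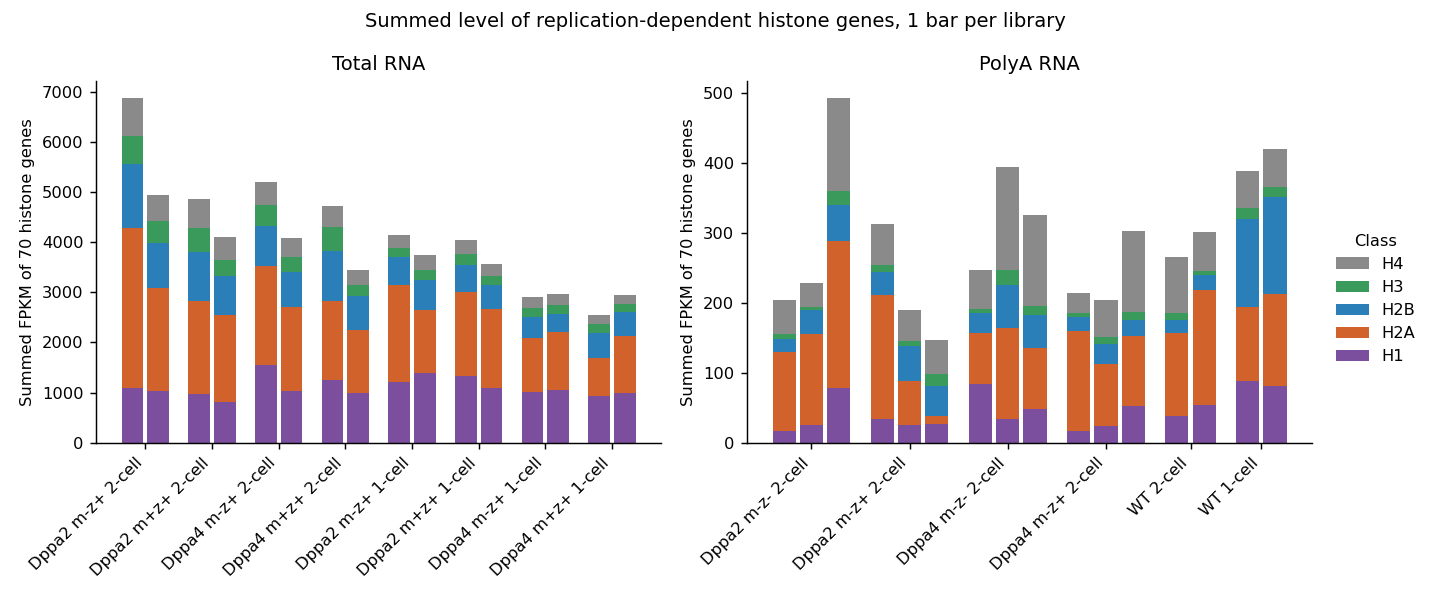
Summed FPKM of the 70 histone genes in each library (1 bar each), stacked by class, with total RNA on the left and polyA RNA on the right on separate scales. 2-cell groups stand left of 1-cell groups, and the WT 1-cell polyA bars, 388.0 and 419.6 FPKM, hold a larger H2B part than any 2-cell polyA bar.

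The rises were widespread among the core histones. Rises were called for 14 to 16 of 20 H2A genes across the 4 comparisons, 10 to 12 of 19 H2B genes, 5 to 9 of 12 H3 genes and 7 to 12 of 13 H4 genes, and 1 or 2 of 6 H1 genes. In all 4 comparisons 30 of the 69 tested histone genes rose. The share of all genes tested that did so is not given, but it cannot exceed the lowest share of rises in a single comparison above. When the 8 2-cell libraries of every genotype were set against the 8 1-cell libraries, 27 of 70 histone genes lay above without overlap (23.0% of all genes tested) and 0 lay below (21.6%).

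Hist1h1b, the linker histone H1.5 (chr13:21779883-21780625), had 20.64 to 38.54 FPKM (median 32.5) in the 2-cell and 0.2024 to 2.87 FPKM (median 1.518) in the 1-cell total RNA libraries. The stages did not overlap, and its change was 3.52, 4.09, 3.87 and 3.64 in Dppa2 m-z+, Dppa2 m+z+, Dppa4 m-z+ and Dppa4 m+z+ embryos (SE 0.47, highest adjusted p 4.05e-05). It was the only linker histone gene among those that rose in every comparison. Hist1h3i, an H3 gene (chr13:21782960-21783370), had 10.59 to 37.97 FPKM (median 23.01) in 2-cell libraries and 0.2951 to 1.104 FPKM (median 0.4994) in 1-cell libraries. Its change was 4.31, 4.04, 3.86 and 3.19 in the same order (SE 0.38, highest adjusted p 2.15e-05). Near absence at the 1-cell stage was shared by a set of H2A genes. Hist1h2af had 30.42 to 113.7 FPKM in 2-cell and 1.104 to 5.439 FPKM in 1-cell libraries, a change of 4.06, 3.8, 4.13 and 3.45 (SE 0.31). Hist1h2ai had 7.373 to 121.0 FPKM in 2-cell and 0.5875 to 1.607 FPKM in 1-cell libraries, a change of 4.74, 3.89, 3.46 and 2.5 (SE 0.6). Hist1h2an had 19.99 to 150.6 FPKM in 2-cell and 1.313 to 5.272 FPKM in 1-cell libraries. These 3 genes share 79.7%, 90.1% and 85.8% of their stretches with other genes, so their separate levels are uncertain.

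Hist2h2ac, the H2A gene with its own hairpin version, gave the tightest change. It had 64.91 to 189.5 FPKM (median 106.6) in 2-cell and 8.812 to 15.95 FPKM (median 12.94) in 1-cell libraries, a change of 3.27, 3.06, 2.97 and 2.83 (SE 0.18, highest adjusted p 1.63e-07). Calls for other abundant genes of the Hist2 cluster were fewer. Hist2h2aa2 had 288.0 to 801.0 FPKM in 2-cell and 154.3 to 727.1 FPKM in 1-cell libraries, and was called only in Dppa4 m-z+ embryos, at 0.79 (SE 0.25, adjusted p 0.019). Hist2h2aa1 was called in none, with an SE of 2.01 and the 1 library at 0.947 FPKM. The coding Hist2h2bb row rose by 1.78, 1.94 and 1.42 in Dppa2 m-z+, Dppa2 m+z+ and Dppa4 m-z+ embryos, and stood at 0.67 (adjusted p 0.137) in Dppa4 m+z+ embryos.

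Among H2B genes, Hist1h2bm had 11.71 to 97.74 FPKM in 2-cell and 0.4761 to 11.59 FPKM in 1-cell libraries, a change of 2.84, 3.15, 2.69 and 3.25 (SE 0.43). Hist1h2bj, the highest H2B gene of the Hist1 cluster, had 71.6 to 245.2 FPKM in 2-cell and 20.34 to 159.3 FPKM in 1-cell libraries, and rose in 3 of the 4 comparisons. Hist1h3a had 15.9 to 45.48 FPKM in 2-cell and 9.138 to 23.05 FPKM in 1-cell libraries, and was called in 2 of the 4. The abundant H3 gene Hist1h3f had 91.07 to 211.1 FPKM in 2-cell and 82.75 to 114.9 FPKM in 1-cell libraries, with no call. Hist1h3g rose in all 4, with 32.57 to 66.37 FPKM in 2-cell and 11.18 to 20.8 FPKM in 1-cell libraries. Of the H4 genes, Hist1h4c had 95.05 to 249.3 FPKM in 2-cell and 44.27 to 128.1 FPKM in 1-cell libraries, a change of 0.84, 0.75, 0.6 and 1.13 (SE 0.22). Hist4h4 changed by 1.44, 1.04, 1.2 and 1.24 (SE 0.19). The stages overlapped for both when all genotypes were pooled, and each rose in all 4 comparisons.

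The genes that fell were linker histones and the germ-cell pair. Hist1h2aa and Hist1h2ba, for TH2A and TH2B, lie side by side on opposite strands (chr13:23934462-23934851, plus, and chr13:23933773-23934156, minus). Hist1h2aa had 66.75 to 165.3 FPKM (median 88.58) in 2-cell and 130.7 to 265.1 FPKM (median 192.8) in 1-cell libraries. It fell in all 4 comparisons, by 1.0, 1.28, 1.11 and 0.93 on the log2 scale (SE 0.26, adjusted p 0.0057, 0.00107, 0.00369 and 0.0112). The call was lost in Dppa2 m-z+ embryos without 2-cell replicate 2 (-0.59), and in Dppa4 m+z+ embryos without 1-cell replicate 2 (-0.73), without 2-cell replicate 1 (-0.82) and with median-ratio scaling (-0.72). Hist1h2ba had 42.12 to 75.92 FPKM in 2-cell and 65.75 to 118.6 FPKM in 1-cell libraries, and fell in both Dppa2 groups, by 0.76 in m-z+ and 0.91 in m+z+ embryos (SE 0.21). In Dppa4 embryos its values were -0.37 in m-z+ and -0.35 in m+z+ (adjusted p 0.151 and 0.175).

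Hist1h1d, the linker histone H1.3, had 9.564 to 39.61 FPKM (median 16.46) in 2-cell and 27.0 to 45.03 FPKM (median 39.21) in 1-cell libraries. It fell by 0.99 in Dppa2 m-z+, 1.45 in Dppa2 m+z+ and 1.16 in Dppa4 m+z+ embryos (SE 0.37), with -0.86 in Dppa4 m-z+ embryos (adjusted p 0.0723). Its 2-cell value in Dppa2 m-z+ replicate 1, 39.61 FPKM, stood apart, and without replicate 2 the Dppa2 m-z+ change was -0.16. In that group the call was also lost without either 1-cell library (-1.01 and -0.97), and in Dppa4 m+z+ embryos without any of the 4 libraries (-1.2 to -1.12). Hist1h1e, H1.4, was called in Dppa2 m-z+ embryos alone, at -1.3 (SE 0.52, adjusted p 0.0482), a call lost without 1-cell replicate 1 (-0.98), 1-cell replicate 2 (-1.62) or 2-cell replicate 2 (-0.8). Hist1h1a itself had 765.9 to 1454 FPKM (median 959.1) in 2-cell and 877.7 to 1310 FPKM (median 1016) in 1-cell libraries. Its change was -0.33 in Dppa2 m-z+, -0.45 in Dppa2 m+z+ (adjusted p 0.0498, the single call), 0.28 in Dppa4 m-z+ and 0.21 in Dppa4 m+z+ embryos.

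**Figure D4:**
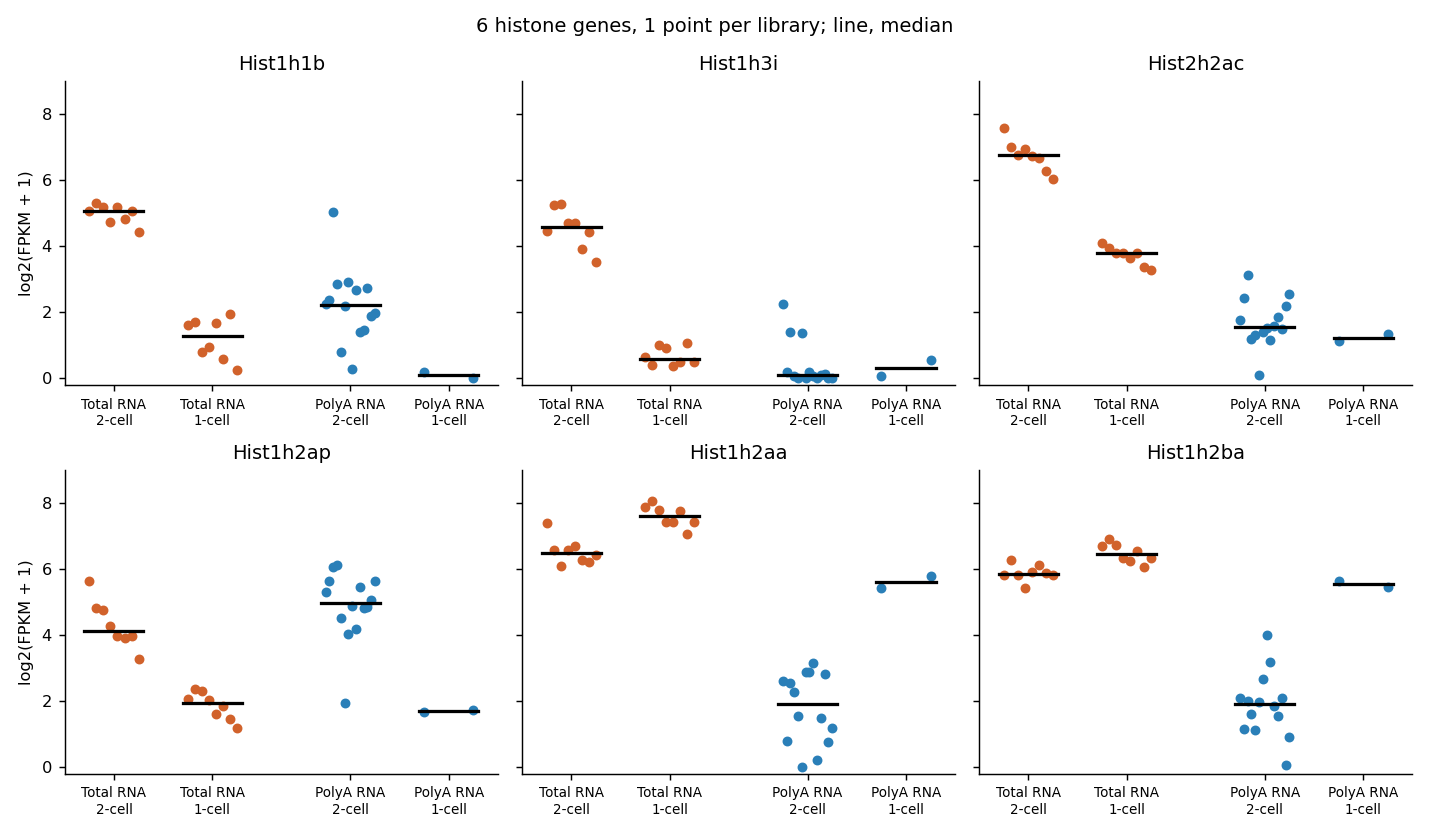
log2(FPKM + 1) of 6 histone genes in every library, 1 point each, for 2-cell and 1-cell total RNA (orange) and 2-cell and 1-cell polyA RNA (blue). Lines are medians. Hist1h1b and Hist1h2ap are higher at the 2-cell stage in both kinds of RNA, Hist1h3i and Hist2h2ac separate the stages in total RNA, and Hist1h2aa and Hist1h2ba drop most in polyA RNA.

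Stage, polyA RNA. In WT embryos the calls in polyA RNA went in both directions. The 70 genes together had 265.1 and 300.5 FPKM in WT 2-cell libraries, against 388.0 and 419.6 FPKM in WT 1-cell libraries. Of the 53 genes tested, 8 rose and 6 fell, where 17.4% and 8.42% of all genes tested did (25.9% together). These counts are near those shares of 53 genes, and the median change was -0.27 beside 0.23 over all genes. With TPM scaling 7 rose and 8 fell, which turned the balance, and the shares of all genes with that scaling are not given. Of the 14 calls, 6 were made without either WT 1-cell library, 8 without WT 2-cell replicate 1 and 9 without WT 2-cell replicate 2.

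All 8 genes that rose carry H2A names, 1 of them, Hist1h2aj, being annotated as a pseudogene. Hist1h2ap had 32.17 and 48.26 FPKM in WT 2-cell libraries and 2.2 and 2.335 FPKM in WT 1-cell libraries, a change of 3.63 (SE 0.83, adjusted p 0.0036). Hist1h2ao had 20.91 and 31.12 FPKM in 2-cell libraries and 1.564 and 1.642 FPKM in 1-cell libraries, a change of 3.35 (SE 0.78, adjusted p 0.00386). These genes were also higher in all 14 2-cell polyA libraries of every genotype than in the 2 1-cell libraries, as were Hist1h1b and Hist1h2ak, so that 4 of 70 were (18.5% of all genes tested). The margin was small in Dppa2 m-z+ replicate 3, with 2.846 FPKM of Hist1h2ap and 1.901 FPKM of Hist1h2ao. The lowest 2-cell values of Hist1h2ak and Hist1h1b were 0.3563 and 0.2124 FPKM, and their highest 1-cell values 0.2612 and 0.1433 FPKM. Hist1h2aj rose by 2.98, a call lost without WT 1-cell replicate 1 (2.62), and Hist1h2ak, Hist1h2an, Hist1h2ah, Hist1h2ai and Hist1h2ad rose by 2.58 to 1.64. Hist1h2ao, Hist1h2ap and Hist1h2aj share 93.5%, 93.1% and 93.1% of their stretches with other genes, and each overlaps an annotated gene on the other strand. The part of reads from other copies or the other strand was not tested.

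The falls in polyA RNA took the germ-cell pair to near 0. Hist1h2ba had 0.04627 and 0.8904 FPKM in WT 2-cell libraries, against 48.56 and 42.91 FPKM in WT 1-cell libraries. Its change was -5.05 (SE 0.58, adjusted p 4.84e-06), the largest of the histone genes in polyA RNA. Hist1h2aa had 0.7067 and 1.29 FPKM in 2-cell libraries, against 41.68 and 54.61 FPKM in 1-cell libraries, a change of -4.62 (SE 0.83, adjusted p 0.000484). In total RNA of 2-cell embryos Hist1h2ba stayed at 42.12 FPKM or more, and Hist1h2aa at 66.75 FPKM or more. Hist1h2bk, an H2B gene with a hairpin in its model, had 1.922 and 3.008 FPKM in 2-cell libraries and 26.69 and 42.04 FPKM in 1-cell libraries, a change of -3.33 (SE 0.54, adjusted p 0.00018), while its total RNA value rose in Dppa4 m+z+ embryos by 1.05 (SE 0.27, adjusted p 0.00577). Hist1h2bc had 0 and 2.024 FPKM in WT 2-cell and 19.95 and 19.77 FPKM in WT 1-cell libraries, and fell by 3.58. The call was lost without either WT 1-cell library (-3.58 and -3.59) and without WT 2-cell replicate 1 (-2.79). Over all 14 2-cell libraries it ranged from 0 to 27.23 FPKM (median 4.61), which overlapped the 1-cell values. The others that fell were Hist1h2al (-2.14) and Hist1h2bn (-1.9). Hist1h1a had 34.05 and 48.39 FPKM in WT 2-cell libraries and 83.83 and 79.36 FPKM in WT 1-cell libraries, with no call (-0.99, SE 0.6, adjusted p 0.254). It is one of 8 genes that lay below both 1-cell libraries in all 14 2-cell libraries (10.6% of all genes tested), with Hist1h2aa, Hist1h2ba, Hist1h2bf, Hist1h2bk, Hist1h2bn, Hist1h3f and Hist2h2aa1.

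**Figure D5:**
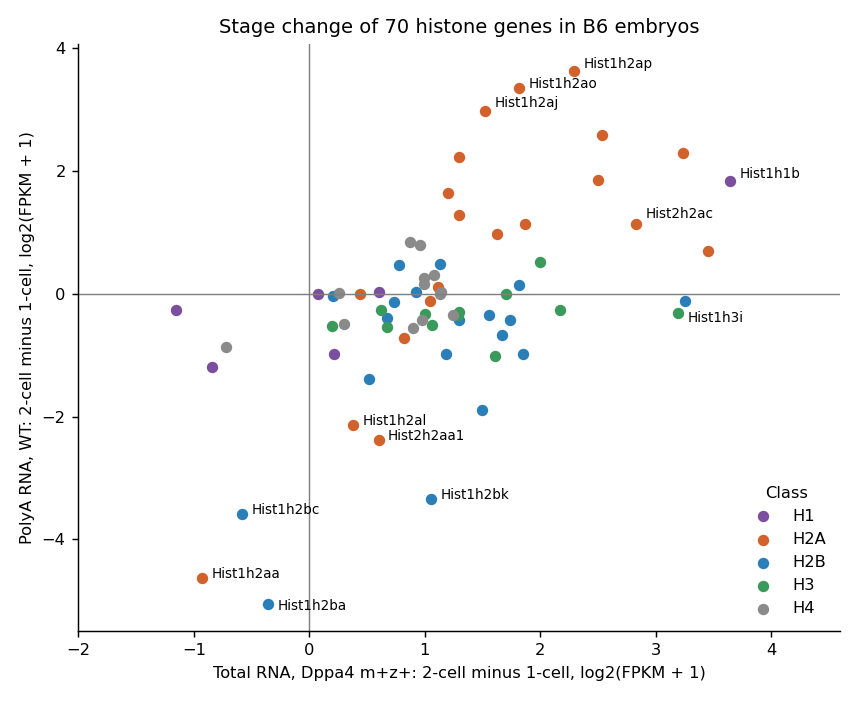
Change of each of the 70 histone genes between stages in B6 embryos, as the difference of mean log2(FPKM + 1), 2-cell minus 1-cell, in total RNA of Dppa4 m+z+ embryos (horizontal axis) and polyA RNA of WT embryos (vertical axis), coloured by class. H2A genes fill the upper right, while most H2B and H3 genes lie right of 0 and near or below 0 on the vertical axis.

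Setting the B6 controls of both kinds of RNA side by side, 59 of 70 histone genes had both 2-cell libraries above both 1-cell libraries in total RNA and 6 had them below (40.0% and 39.1% of the 13916 genes tested for both kinds of RNA). In polyA RNA 17 were above and 29 below (41.9% and 31.7%). The combination of higher in total RNA and lower in polyA RNA was seen for 21 genes, 10 of them H2B, 7 H3, 2 H4, 1 H1 and 1 H2A. It was seen for 16 of the 53 histone genes tested for both kinds of RNA, beside 1.88% of all genes so tested. Some of the 21 averaged under 1 FPKM in WT polyA RNA at both stages, so their polyA direction rests on values near 0. These were Hist1h2bb, Hist1h2bl, the coding Hist2h2bb row and Hist2h2be, with Hist1h3a, Hist1h3b, Hist1h3d, Hist1h3h and Hist1h3i. For Hist1h1a the closest total RNA values were 937.8 FPKM at the 2-cell and 932.4 FPKM at the 1-cell stage. Higher in both was seen for 17 genes, 14 of them H2A, with Hist1h1b, Hist1h4d and Hist1h4i (29.1% of all genes). Lower in both was seen for Hist1h1e, Hist1h2aa, Hist1h2ba, Hist1h2bc and Hist2h4 (24.6% of all genes), and lower in total with higher in polyA RNA for 0 (4.58%). Of the 24 histone genes that overlap a gene on the other strand, 14 were above and 4 below in polyA RNA, and of the 44 that do not, 3 were above and 24 below. The 2 sets differ in class as well, and the part of the other strand was not tested.

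Genes that make and handle histone mRNA. Slbp, the gene of the stem-loop binding protein, was lower at the 2-cell stage in both kinds of RNA. Its total RNA level was 96.71 and 107.0 FPKM in Dppa2 m-z+ 2-cell embryos, against 471.9 and 422.8 FPKM in Dppa2 m-z+ 1-cell embryos, and 103.2 and 96.38 FPKM in Dppa2 m+z+ 2-cell embryos, against 446.0 and 470.4 FPKM in Dppa2 m+z+ 1-cell embryos. In Dppa4 m-z+ embryos it was 115.3 and 131.8 FPKM at the 2-cell stage, against 494.4 and 498.1 FPKM at the 1-cell stage. In Dppa4 m+z+ embryos it was 122.8 and 143.5 FPKM at the 2-cell stage, against 485.9 and 500.9 FPKM at the 1-cell stage. The stages did not overlap in total RNA, and the fall was 2.12, 2.19, 2.0 and 1.89 on the log2 scale in the same order (SE 0.12, highest adjusted p 1.89e-07). In polyA RNA it had 163.7 and 259.2 FPKM in WT 2-cell embryos, against 1948 and 1580 FPKM in WT 1-cell embryos, a change of -3.08 (SE 0.44, adjusted p 4.91e-05).

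Slbp belongs to a list of 25 genes for histone mRNA transcription, 3′ end cutting, cap binding and decay, of which 24 were tested. In total RNA 8 rose and 7 fell in Dppa2 m-z+, 7 and 6 in Dppa2 m+z+, 7 and 6 in Dppa4 m-z+, and 7 and 5 in Dppa4 m+z+ embryos, while in WT polyA RNA 5 rose and 2 fell. These counts are near what the shares of all genes called, given above for each comparison (28.8% and 28.4% in Dppa2 m-z+ embryos), make of 24 genes, so they show nothing particular to the list. Npat, the coactivator that gathers at histone gene loci, rose by 1.71, 1.68, 1.54 and 1.47 in total RNA and by 2.62 in polyA RNA. Snrpb, a ring protein of the snRNPs that process RNA, rose by 2.96, 2.81, 2.32 and 2.8 in total RNA and by 4.83 in polyA RNA. Ncbp1, a cap-binding subunit, rose by 4.63, 5.02, 4.24 and 4.64 in total RNA and by 5.13 in polyA RNA. Zcchc11, which adds uridines to RNA ends, rose by 2.73, 3.68, 3.06 and 3.08 in total RNA and by 2.51 in polyA RNA. Cpsf3, the endonuclease that cuts histone and other pre-mRNAs, fell by 2.01, 1.69, 2.44 and 2.33 in total RNA, with -0.42 in polyA RNA (adjusted p 0.613).

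The 12 histone genes with tailed mRNAs, 11 of them tested, split as well. In total RNA 4 rose in each comparison, and 2 fell in Dppa2 m-z+, 3 in Dppa2 m+z+, 3 in Dppa4 m-z+ and 2 in Dppa4 m+z+ embryos. In WT polyA RNA 4 rose and 2 fell. The shares of all genes that rose were 24.9% to 31.7% in total RNA and 17.4% in polyA RNA, and those that fell 24.2% to 29.9% and 8.42%, and nothing is read from counts of 11 genes against them. H2afz, for the variant H2A.Z, rose by 3.43, 3.68, 2.54 and 2.75 in total RNA and by 3.84 in polyA RNA. H1foo, the oocyte linker histone, fell by 2.71, 3.01, 2.5 and 2.19 in total RNA and by 3.18 in polyA RNA. H2afv, for a close relative of H2A.Z, rose by 1.93, 2.2, 1.62 and 1.12 in total RNA and by 3.44 in polyA RNA. H2afy, for macroH2A, fell by 2.01, 1.77, 1.62 and 1.31 in total RNA and by 2.85 in polyA RNA. These 4 genes changed in the same direction in both kinds of RNA.

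Genotype. No histone gene was called between m-z+ and m+z+ embryos in total RNA by limma. The number at an unadjusted p under 0.05 was 0 for Dppa2 at the 1-cell stage, 14 for Dppa2 at the 2-cell stage, 6 for Dppa4 at the 1-cell stage and 5 for Dppa4 at the 2-cell stage, where 3.05%, 12.8%, 1.27% and 2.67% of all genes tested were under it. At the adjusted threshold 0.0398%, 0.186%, 0.00664% and 0.0% of all genes were called. The same 0 was found with limma's trend and robust options off. In Dppa2 2-cell embryos the median difference of histone genes was 0.37, and 63 of 69 were positive. The same values over all genes are not given, so whether these differ from a shift of all genes cannot be read from them. The histone genes share libraries and sequence, so the 63 are not separate observations of the genotype. The m-z+ libraries lay above the m+z+ libraries without overlap for 29 of 70 genes and below for 2 (16.1% and 15.3% of all genes). The 2 m-z+ libraries differed: Dppa2 m-z+ 2-cell replicate 1 had 40.01 FPKM of Hist1h2ao where replicate 2 had 11.74 and the m+z+ libraries 11.63 and 8.708 FPKM. Without m-z+ replicate 2, so with that library alone, 8 genes were called, and without replicate 1 there was 1. The shares of all genes called in those fits are not given. With all libraries the smallest p was that of Hist1h2ab, averaging 19.57 FPKM over the m-z+ and 4.937 FPKM over the m+z+ libraries (adjusted p 0.196). The other comparisons had 19 above and 4 below for Dppa2 at the 1-cell stage (20.1% and 15.3% of all genes), 25 and 4 for Dppa4 at the 1-cell stage (18.3% and 14.0%), and 12 and 3 for Dppa4 at the 2-cell stage (11.3% and 10.8%). Without m-z+ replicate 1, 1 gene was called for Dppa2 at the 1-cell stage.

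The change between stages did not differ between m-z+ and m+z+ embryos for any histone gene in the test of that difference, with 0 called for Dppa2 and 0 for Dppa4, 2 and 0 at an unadjusted p under 0.05 (8.62% and 1.79% of all genes), and 0.0% and 0.00664% of all genes called. In Dppa2 1 gene was called without m-z+ 1-cell replicate 1 or without m-z+ 2-cell replicate 2.

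In polyA RNA of 2-cell embryos 0 histone genes were called in any of 6 comparisons. At an unadjusted p under 0.05 there were 4 of 53 between embryos labelled Dppa2 m-z- and Dppa2 m-z+ (7.65% of all genes), 3 between labelled Dppa2 m-z- and WT (6.21%) and 8 between Dppa2 m-z+ and WT (7.75%). There were 5 between Dppa4 m-z- and m-z+ (7.0%), 4 between Dppa4 m-z- and WT (10.7%) and 2 between Dppa4 m-z+ and WT (6.65%). At the adjusted threshold 0.0054%, 0.0973%, 0.113%, 0.0162%, 0.0648% and 0.0% of all genes were called in these comparisons in the same order. The nearest to a call was Hist1h2ba, which measured 5.29, 15.11 and 8.117 FPKM in the Dppa4 m-z- libraries and 0.04627 and 0.8904 FPKM in WT 2-cell embryos. The difference was 2.79 (SE 0.53, adjusted p 0.0839), and it was the 1 gene called with limma's trend and robust options off. Dppa4 m-z+ embryos had 2.629, 1.922 and 3.229 FPKM of it, between the other groups. The comparisons with WT share the same 2 WT libraries, and those of Dppa2 also differ in strain background. Of the 25 genes that handle histone mRNA, 1 was called in these comparisons: Eri1, an exonuclease that trims histone mRNA ends. Its level was 23.48, 24.48 and 28.93 FPKM under the label Dppa2 m-z-, in the libraries of Dppa2 m-z+ embryos 32.7, 20.16 and 26.88 FPKM, and in those of Dppa4 m-z- embryos 22.35, 24.04 and 14.99 FPKM, against 0.1823 and 4.812 FPKM in WT 2-cell embryos. The differences from WT were 3.34, 3.37 and 3.01 (SE 0.51, adjusted p 0.0137, 0.0122 and 0.0325). Dppa4 m-z+ embryos, at 14.11, 14.97 and 14.2 FPKM, were 2.56 above WT with no call (adjusted p 0.173). WT 1-cell embryos had 13.93 and 11.25 FPKM of it. In total RNA of Dppa4 m+z+ embryos Eri1 averaged 2.818 FPKM at the 2-cell and 11.93 FPKM at the 1-cell stage. In Dppa2 m+z+ embryos it averaged 5.183 and 13.11 FPKM in the same order. The m-z+ 2-cell embryos stood above m+z+ in total RNA by 0.94 for Dppa2 and 0.9 for Dppa4 (SE 0.28), with no call. The cause of the Eri1 differences was not tested.

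Strain background and arm. Control embryos of the Dppa2 arm (mixed B6/DBA) and of the Dppa4 arm (B6) differ in background and in arm, which cannot be told apart. At the 1-cell stage 5 histone genes were higher and 2 lower in Dppa2-arm m+z+ embryos (0.611% and 0.398% of all genes, 1.01% together), and at the 2-cell stage 9 were higher and 1 lower (4.5% and 4.63%, 9.13% together). Hist4h4 had 42.92 and 37.59 FPKM in Dppa2-arm and 10.89 and 10.06 FPKM in Dppa4-arm 1-cell embryos, a difference of 1.84 (SE 0.19, adjusted p 0.000461). At the 2-cell stage it had 83.2 and 83.71 FPKM in Dppa2-arm and 29.71 and 23.01 FPKM in Dppa4-arm embryos, a difference of 1.64 (SE 0.19, adjusted p 0.00097). Hist1h2al was the opposite, with 89.96 and 77.34 FPKM in Dppa2-arm and 416.4 and 237.4 FPKM in Dppa4-arm 2-cell embryos, a difference of -1.9 (SE 0.22, adjusted p 0.000859), and -1.3 at the 1-cell stage. The m-z+ libraries entered the shared spread of this test but not the means it compared. They stood on the same sides: Hist4h4 had 114.7 and 89.71 FPKM in 2-cell embryos of Dppa2 m-z+ genotype, and 44.82 and 31.35 FPKM in those of Dppa4 m-z+ genotype.

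Whether these differences changed with stage was not tested. At the 1-cell stage Hist1h2bj had 117.5 and 132.1 FPKM in Dppa2-arm and 20.34 and 34.98 FPKM in Dppa4-arm embryos, a difference of 2.18 (SE 0.28, adjusted p 0.00191), and at the 2-cell stage the difference was 0.96 (adjusted p 0.0505). The coding Hist2h2bb row had 102.8 and 62.98 FPKM in Dppa2-arm and 295.7 and 239.9 FPKM in Dppa4-arm embryos, a difference of -1.71 (SE 0.36, adjusted p 0.0434). At the 2-cell stage Hist1h2bm had 73.49 and 53.98 FPKM in Dppa2-arm and 23.31 and 11.71 FPKM in Dppa4-arm embryos, a difference of 1.86 (SE 0.43, adjusted p 0.0223), and at the 1-cell stage it was 1.97 (adjusted p 0.0561). Hist1h2ak was higher in Dppa2-arm embryos at both stages, by 1.09 at the 2-cell stage (SE 0.23, adjusted p 0.016) and by 1.49 at the 1-cell stage (adjusted p 0.0071). Hist1h2bn and Hist3h2ba were higher by 1.37 and 1.13 at the 2-cell stage, and Hist2h2aa2 by 1.48 at the 1-cell stage. In a fit of the compared libraries alone 0 of these calls were made at either stage. The 1-cell count of 7 was 2 or 3 without any one library, and the 2-cell count of 10 was 2 without Dppa2 m+z+ replicate 1 or Dppa4 m+z+ replicate 2 and 23 without Dppa4 m+z+ replicate 1. The call of the coding Hist2h2bb row was lost without any one library (-2.06 to -1.37), and that of Hist1h2bm without Dppa2 m+z+ replicate 1 (1.65) or Dppa4 m+z+ replicate 2 (1.4). The 1-cell call of Hist1h2ak was lost without any one library (1.43 to 1.56), and that of Hist2h2aa2 without Dppa2 m+z+ replicate 1 (1.47) or 2 (1.48) or Dppa4 m+z+ replicate 1 (1.0). The call of Hist1h2bn was lost without Dppa2 m+z+ replicate 1 (1.41) or 2 (1.33) or Dppa4 m+z+ replicate 2 (1.06), and that of Hist3h2ba without Dppa2 m+z+ replicate 1 (0.98) or Dppa4 m+z+ replicate 2 (0.99). Hist4h4, Hist1h2al at the 2-cell stage and Hist1h2bj kept their calls with any one library left out.

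Libraries and labels. Summed FPKM ran from 412115 to 629583 over the 16 total RNA libraries and from 539978 to 675241 over the 16 polyA libraries, with 10706 to 13071 and 10842 to 13916 genes at 1 FPKM or more. The files hold no read counts and the low values showed no steps of whole reads, so depth is unknown. The targeted genes were as labelled in part: the Dppa2 transcript measured 9.38 and 9.52 FPKM in the Dppa2 m-z+ and 32.31 and 32.66 FPKM in the m+z+ libraries of 1-cell total RNA, and the Dppa4 transcript 0, 0 and 0.1491 FPKM in the Dppa4 m-z- libraries and 201.0 and 184.5 FPKM in WT 2-cell polyA RNA. The libraries labelled Dppa2 m-z- had 154.9, 130.2 and 76.55 FPKM of Dppa2, beside 123.1 and 69.56 FPKM in WT, which goes against a loss of the transcript. Markers of the 2-cell embryo summed to 290.8 to 377.2 FPKM in 2-cell and 7.337 to 25.38 FPKM in 1-cell total RNA, and markers of the oocyte to 289.4 to 702.9 FPKM in 2-cell and 1596 to 2268 FPKM in 1-cell total RNA. Markers of other cells moved with stage too. In total RNA the 6 blood cell markers summed to 4.58 to 14.83 FPKM at the 2-cell and 0 to 0.0825 FPKM at the 1-cell stage, with 2 or 3 of them at 0 in each 2-cell group and 5 or 6 in each 1-cell group. The 7 sperm markers summed to 0.289 to 3.856 FPKM at the 2-cell and 4.459 to 14.13 FPKM at the 1-cell stage, and the 8 cumulus cell markers to 1.923 to 6.167 and 4.603 to 9.461 FPKM in the same order, with 3 to 5 and 2 to 5 of them at 0. In polyA RNA the blood cell markers summed to 16.83 to 1578 FPKM in 2-cell embryos and 0 to 0.101 FPKM in 1-cell embryos. Their part in the histone gene results was not tested.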

How the data were processed

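The authors deposited 1 table of FPKM values for the 16 total RNA libraries and 1 for the 16 polyA libraries. Per the submitters' processing notes, HISAT2 2.1.0, StringTie 1.3.3b and the mm10 build were used. A stranded SMARTer kit served for total RNA, per the labels' protocols, and for polyA RNA an ultra low input SMARTer kit with Nextera XT. The FPKM values were analysed as deposited, as log2(FPKM + 1), with limma 3.58.1 (R 4.3.3), 1 mean per group, moderated with trend and robust options, two-sided, for 15068 genes (total RNA) and 18506 genes (polyA RNA) with at least 1 FPKM in 2 libraries, in 19 comparisons, tested on simulated data first. A pseudocount of 1 understates changes of low genes. The tables were not tested against each other. Positions, overlaps and sequences came from GENCODE M21. Histone genes named in the text were those highest in their class or kind of RNA, the largest changes past the threshold, the widest and narrowest gaps between kinds of RNA and the germ-cell variants. Others named among counts were chosen after their values were seen. The genes, lists and rule were chosen with earlier results of these data known. Alternatives tried were the pseudocount, the filter, TPM and median-ratio scaling, limma's options, the libraries fitted, a replicate block and leaving out each library. Replicate numbers did not pair the libraries.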

Additional observations from a re-analysis of the deposited data

How the results depend on the processing

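The counts of called histone genes between stages in total RNA stayed within 1.5 times the values above (51 in Dppa2 m-z+, 44 in Dppa2 m+z+, 45 in Dppa4 m-z+ and 43 in Dppa4 m+z+ embryos) under each alternative run, except the Dppa4 m+z+ count without 2-cell replicate 1 (23). The limits are 2 or 3 libraries per group, unknown depth and shared sequence. Of 37 calls on named genes, 20 held under every alternative; over 407 alternatives 342 kept the call, 65 lost it with the same direction and 0 reversed. Leaving out each library in turn gave 40 to 46, 36 to 44, 30 to 43 and 23 to 46 calls in these 4 comparisons, 6 to 9 in WT polyA RNA (14 above), 0 to 1 and 0 to 8 between Dppa2 m-z+ and m+z+ embryos at the 1-cell and the 2-cell stage, 0 to 1 for their difference in stage change, and 2 to 3 and 2 to 23 between arms at the 1-cell and the 2-cell stage. Between arms the 1-cell count of 7 was 4 with no filter on low values and 0 with the compared libraries alone, and the 2-cell count of 10 was 6 without trend and robust options, 3 with no filter, 0 with the compared libraries alone and 5 with TPM scaling. Between Dppa4 m-z- and WT embryos the count of 0 was 1 without trend and robust options. The cause was not tested. The median difference of total from polyA RNA was 2.38, 4.57, 5.13 and 4.85 with a pseudocount of 0.1 in 1-cell controls, 2-cell controls, Dppa2 m-z+ and Dppa4 m-z+ embryos. It was 1.41 with no filter in 1-cell controls, and 2.32, 4.24 and 3.8 with TPM scaling in 1-cell controls, Dppa2 m-z+ and Dppa4 m-z+ embryos. Leaving out each library gave 1.64 to 1.79 in 1-cell controls and 3.06 to 3.51 in Dppa4 m-z+ embryos. With a replicate block the stage counts were 52, 46, 46 and 46, and 13 in WT polyA RNA; same-numbered libraries did not deviate together (r -0.143 to 0.139 over 56 pairs in total RNA, -0.183 to 0.122 over 36 pairs in polyA RNA), so the numbers do not pair them, and the block moved no count by over 1.5 times.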
